A study of Mus musculus with 12 samples.

Results

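Depleted transcripts were collected from 1 outlying array of BW5147 cells, a mouse thymic lymphoma line of the T lineage. The array, Dex 2, was the array numbered 2 of the cells given dexamethasone alone. Members were chosen by their measured signals. They were probe sets with 1 gene symbol and a mean signal of at least 50 on the other 11 arrays, whose log2(signal + 16) on Dex 2 lay at least 1.0 below the mean of those 11. The rule found 355 probe sets of 251 genes, among 7437 probe sets of 4917 genes that met the signal limit and 22626 in all once controls were removed. The values of Dex 2 against the other arrays chose the members, so they are given as a description and no test was made of them.

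The study held 6 groups of 2 arrays each, and every culture was treated for 8 h. Cells received dexamethasone (Dex, a synthetic glucocorticoid) alone at 100 ng/ml, or the same dose together with the cytokine IL-9 (100 U/ml) or the chemokine CCL1 (100 U/ml). The remaining groups received IL-9 at 100 U/ml, CCL1 at 100 U/ml, or neither (unstimulated). All cells were of a single line, and the labels do not say whether the duplicates were separate cultures, so a p-value here reflects array to array spread that may be purely technical. Array CCL1 2 was of another array type and was joined by probe set identifier, and in what follows an array is called by its group and its label's number.

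Glucocorticoids bind a receptor that acts as a transcription factor, and in thymic lymphoma cells they arrest growth and can start apoptosis, while IL-9 and CCL1 are known to protect such cells. An expression array reads each transcript through sets of short probes, most of them near its 3′ end, and many genes have several such sets, called sister probe sets here.

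Some arrays went against their labels. The mean centred log2 signal of 7 glucocorticoid target genes was 0.21 on Dex 2 and 0.10 on Dex 1, 0.40 and 0.32 on Dex+IL-9 1 and 2, and 0.06 and 0.05 on Dex+CCL1 1 and 2. It was 0.28 on IL-9 1, 0.12 on CCL1 1 and 0.14 on unstimulated 1, although these are labelled as given no Dex. It was -0.40 on IL-9 2, -0.63 on CCL1 2 and -0.65 on unstimulated 2. Fkbp5, a co-chaperone induced through the glucocorticoid receptor, had a signal of 688 on Dex 2 and 611 on Dex 1, 652, 637 and 767 on IL-9 1, CCL1 1 and unstimulated 1, and 348, 277 and 306 on IL-9 2, CCL1 2 and unstimulated 2. Dex 2 thus lay with the arrays high in Fkbp5, and 3 arrays labelled without Dex lay there too. The list is not uniform: it holds Sgk1, which was high on the arrays with IL-9, and the cell cycle inhibitor Cdkn1a, which had 106, 107.5 and 86.6 on IL-9 1, CCL1 1 and unstimulated 1, and 216, 178 and 160.0 on IL-9 2, CCL1 2 and unstimulated 2.

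Of the T lymphocyte markers, 9 of 10 were on the arrays and 7 had a mean signal of at least 50. Their summed signal was 5137 on Dex 2 and 5583 to 6943 on the other 11. Within that list Ptprc, the CD45 phosphatase, differed from the others by -0.81 on the log2 scale and Thy1, a surface glycoprotein, by 0.53. The summed signals of the B cell, myeloid, erythroid, fibroblast and epithelial marker lists on Dex 2 were 22.1, 35.4, 6.87, 9.05 and 28.2, and 0 genes of these lists reached a mean signal of 50. All cells were of a single line, so these sums describe RNA levels and are no measure of cell numbers.

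The difference from the other 11 arrays, on the log2(signal + 16) scale, had a median of 0.06 over the 7437 probe sets and of -1.24 over the members, which is 0.422 times the others. The members are 4.77% of the 7437. The members lay at least 1.5 below in 67 cases and at least 2 below in 5. The distribution was lopsided: the 1st percentile was -1.47 and the 99th was 0.65. Dex 2 was the lowest of the 12 arrays for 352 of the 355 members, which the rule largely fixes. The exceptions were Cenpe, a kinetochore motor, Gadd45g, a stress-inducible growth regulator, and the kinase Sgk1. With a pseudocount of 64 in place of 16, 104 of the 355 met the rule.

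**Figure D1:**
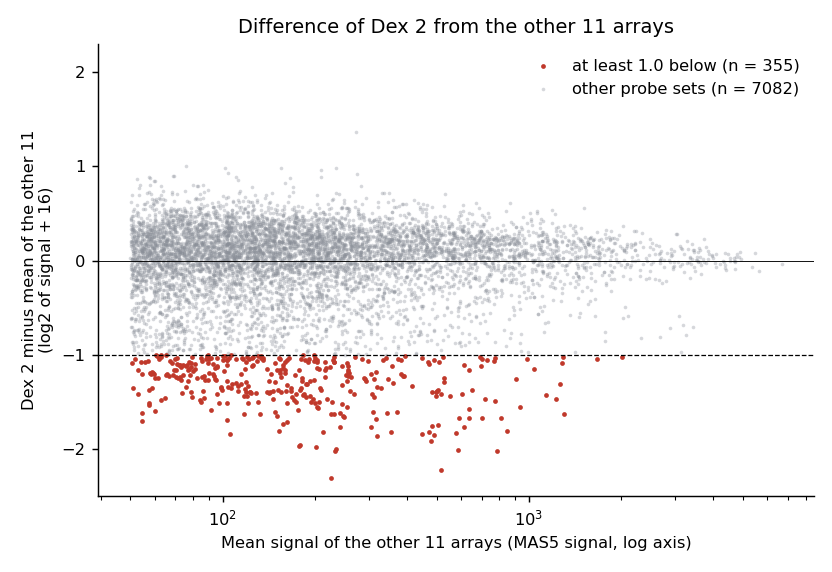
Difference of Dex 2 from the mean of the other 11 arrays (log2 of signal + 16) against the mean MAS5 signal of those 11 (log axis), 1 point per probe set. The 355 members (red) lie at or below the dashed line at -1.0 and form a tail below the cloud, with only 2 probe sets at the same distance above it.

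The same rule applied to each other array in turn found from 1 probe set (0.0135%, on Dex+IL-9 1) to 35 (0.471%, on IL-9 2). CCL1 2 gave 31 (0.417%), unstimulated 2 gave 24 (0.324%) and Dex 1, the partner of Dex 2, gave 2 (0.0269%). On Dex 2 only 2 probe sets lay at least 1.0 above the others (0.0269% of those examined). One was Bcl2l11, which encodes the pro-apoptotic BIM, with a signal of 673 on Dex 2 and 95.5 to 420 on the others (lowest to highest, median 297). It had 374 on Dex 1, and was lowest on IL-9 2, CCL1 2 and unstimulated 2, at 95.5, 134 and 153. The other was Rnasek, a small membrane protein, with 167 on Dex 2 and 59.8 to 100.1 on the others. The limit of 1.0 cut through a continuum. Just inside it were Ncl at -1.003, then Fmr1, 4932438A13Rik, Dynlt3 and Cd2ap at -1.0003. Just outside were a probe set of Rbm39 at -0.9986, then Prps1l3, Mob4, Zfp326 and Zfp62 at -0.9956.

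The deepest depletion was of Cip2a, an inhibitor of the phosphatase PP2A that stabilises MYC. Its signal was 32.4 on Dex 2, against 169.7, 225 and 284 (lowest, median and highest) on the other 11 arrays and 274 on Dex 1. No other array came near Dex 2, and the difference was -2.31 on the log2 scale, or 0.202 times the others. Ube2v2, a partner of the ubiquitin-conjugating enzyme UBC13, had 96.6 on Dex 2, against 433, 509.6 and 621 on the other 11. Hmgn5, a nucleosome-binding protein, had 177 on Dex 2, against 516, 814 and 1070.2 on the other 11. In both cases the lowest of the 11 was CCL1 2, well above Dex 2.

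**Figure D2:**
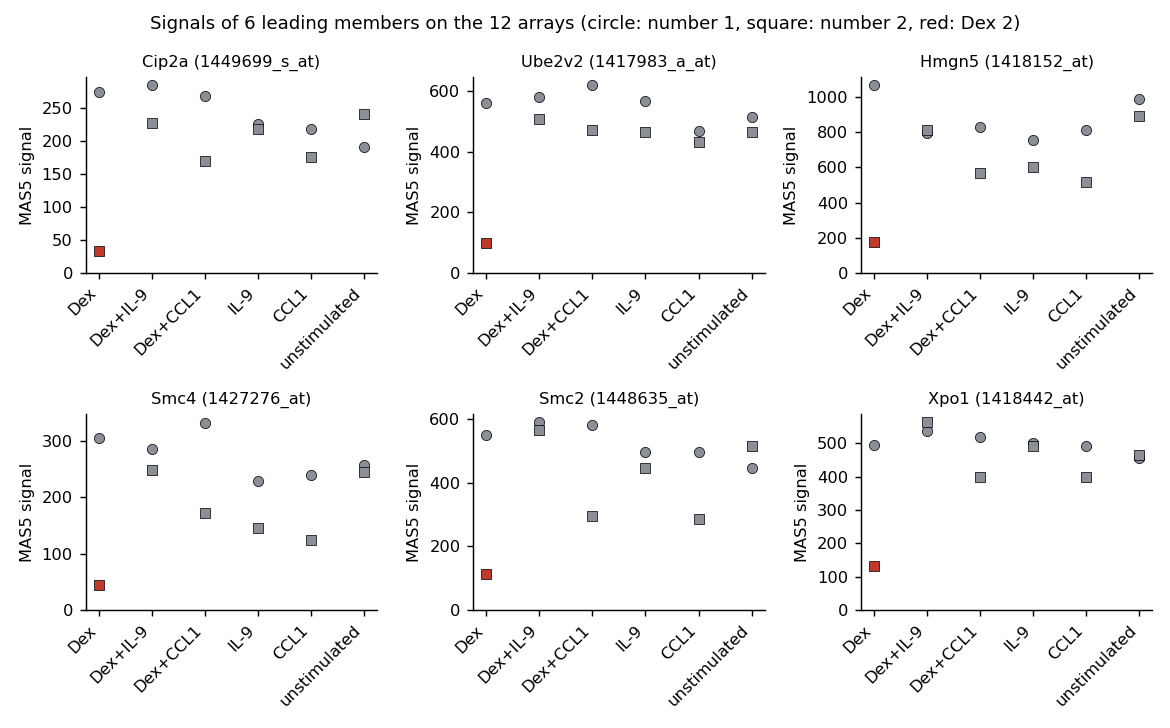
MAS5 signal of 6 strongly depleted members on each of the 12 arrays, by group, with circles for arrays numbered 1 and squares for arrays numbered 2. In all 6 panels Dex 2 (red) lies below every other array, while Dex 1 lies among the rest.

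Several of the most depleted members act on chromosome structure or replication. Smc4 and Smc2 encode the core ATPases of condensin, which compacts chromosomes for mitosis. Smc4 had 44.7 on Dex 2, against 124, 246 and 333 on the other 11, and its other probe sets also met the rule, at -1.67 and -1.58. Smc2 had 112 on Dex 2, against 284, 497 and 589.6 on the other 11. The cohesin subunits Smc3 and Stag2 were at -1.38 and -1.77, and Smc5 and Smc6, of the related DNA repair complex, were at -1.02 and -1.56. Other probe sets of Smc6 were at -1.12, which met the rule, and at -0.74 and -0.43, which did not.

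Both type II topoisomerases, which untangle DNA, were among the members. Top2b had 59.0 on Dex 2, against 170.4, 248 and 298 on the other 11, and Top2a had 312 on Dex 2, against 580, 731 and 755. In the list of topoisomerases, condensin and related genes, 11 of 19 probe sets were members (57.9%, from 7 of 10 genes), and the list's median was -1.11. Over all 7437 probe sets the corresponding values are 4.77% and 0.06. Also low were Pola1, the catalytic subunit of DNA polymerase alpha, with 38.4 on Dex 2 against 114, 208 and 242, and Rif1, which sets replication timing and protects broken DNA ends, with 44.0 on Dex 2 against 139, 243 and 329. Casp8ap2, needed for histone pre-mRNA processing, had 33.0 on Dex 2 against 110.2, 194 and 225.

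Mitotic genes were divided. Of 52 probe sets of kinesins and mitotic genes 10 were members (19.2%), but the list's median was only -0.13. Kif5b, a transport kinesin, supplied 4 of the 10, at -1.09 to -1.69. The others were Kif18a, Kif11, Cenpf, Cenpe, Cenpk and the checkpoint kinase Bub1, at -1.02 to -1.60. Cyclins gave 1 member of 11 probe sets, Ccne2 at -1.25. Histones gave 0 of 5 probe sets, all of which lay above the other arrays.

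Other members take part in RNA handling. Thoc2, of the THO complex that readies mRNA for export, had 17.3 on Dex 2, against 77.0, 100.3 and 159 on the other 11. Esf1, a nucleolar protein of rRNA processing, had 74.0 on Dex 2, against 218, 331 and 449. Rc3h2, the RNA decay factor Roquin-2, had 120.0 on Dex 2, against 289, 473 and 601. RNA helicases gave 6 of 54 probe sets (11.1%, median -0.15), of which 3 were Ddx3x, a helicase of translation, at -1.31 to -1.63, and the rest were of Dhx36 and Ddx10.

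Splicing genes differed between families. SR splicing factors gave 3 of 30 probe sets (Srsf3, Srsf1 and Srsf10), yet 24 of the 30 lay below the other arrays and the median was -0.33. The spliceosome list, chosen by symbol, gave 4 of 47, from Prpf4b, Prpf39 and Prpf38b, with a median of 0.14. Heterogeneous nuclear ribonucleoproteins gave 2 of 47, Hnrnph2 and Syncrip, with a median of -0.24. All 12 probe sets of nuclear noncoding RNAs lay below the other arrays, with a median of -0.50, and 1 of them, Snhg1, was a member.

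Translation was touched through single factors. Eif3a, the scaffold of initiation factor 3, met the rule with all 4 of its probe sets, and the lowest had 133 on Dex 2, against 435, 594 and 708 on the other 11. Abce1, which splits ribosomes after termination, had 123.1 on Dex 2, against 367, 487 and 639. Eif5b and Eif1a were the other initiation genes among 7 members of 75 probe sets, whose median was -0.02. Of the probe sets caught by the pattern for ribosomal proteins 2 of 83 were members: 1 of Rps9 and 1 of Rps6ka3, which encodes a kinase and no ribosomal protein. Mitochondrial ribosomal proteins gave 0 of 103, tRNA synthetases 0 of 36 and RNA polymerase subunits 0 of 33. The respiratory chain list gave 1 of 136, the assembly factor Ndufaf4, and its median was 0.18.

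Nuclear transport, ubiquitin and transcription factor genes made up further groups. Xpo1, the main export receptor, had 131 on Dex 2, against 399, 492 and 565 on the other 11, and Ranbp2, a filament of the nuclear pore, had 32.8 on Dex 2, against 128, 170.0 and 217. With the import receptors Ipo7, Tnpo1 and Kpna3 at -1.67, -1.41 and -1.28 and the pore protein Nup155, the transport list held 6 members of 65 probe sets. Ranbp2 was outside that list's symbol pattern. The list of ubiquitin ligases, proteases and related genes, chosen by symbol, gave 10 of 92, led by Ube2v2, Ube3a, Usp9x and Usp34. Zinc finger genes gave 19 of 74 (25.7%, from 13 genes), with a median of -0.46. These lay lower in signal: Zfp871, at the head of them, had 31.8 on Dex 2 and a mean of 132.5 on the others.

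**Figure D3:**
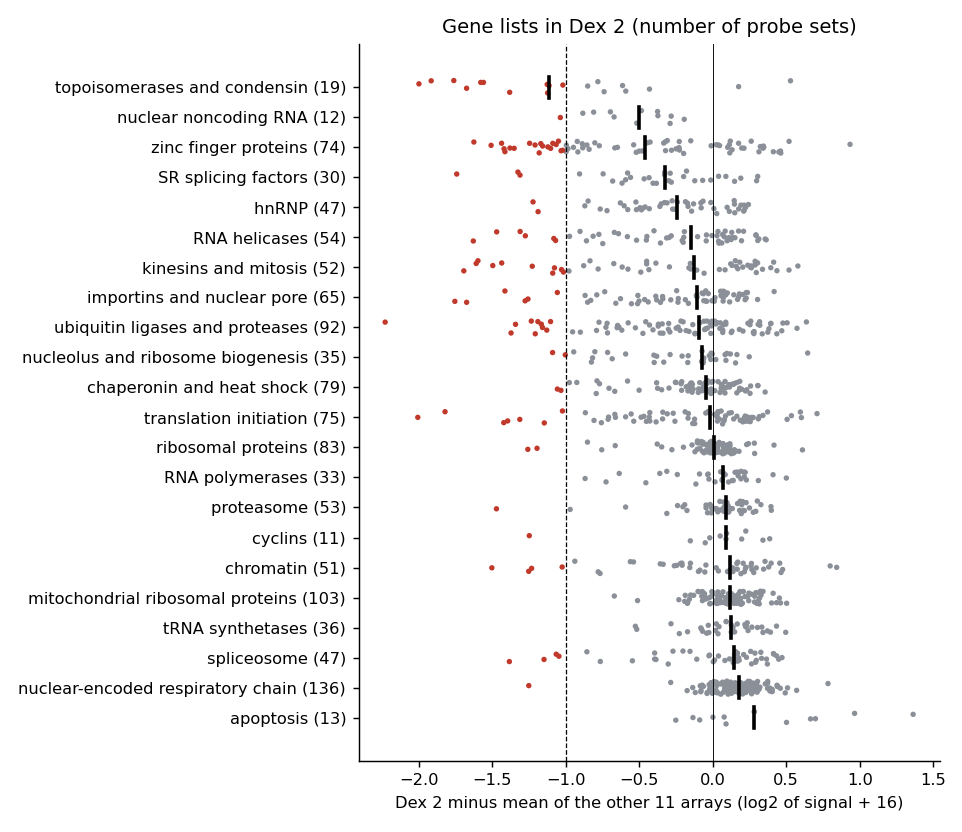
Difference of Dex 2 from the mean of the other 11 arrays (log2 of signal + 16) for each probe set (points) of the gene lists, with list medians (black bars) and the number of probe sets in brackets. Members (red) lie below the dashed line at -1.0, and among the lists drawn, those with at least 10 probe sets, the medians run from -1.11 for topoisomerases and condensin to 0.28 for apoptosis.

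Members outside these lists included genes of the cytoskeleton, membranes and metabolism. Septin7, a filament-forming GTPase, had 168 on Dex 2, against 471, 623 and 706 on the other 11. Sh3bgrl, a small adaptor protein, had 147 on Dex 2, against 405, 545 and 785, and Far1, an enzyme of ether lipid synthesis, had 31.2 on Dex 2, against 105, 145 and 221. The apoptosis list gave 0 of 13 probe sets, with a median of 0.28, and the glucocorticoid targets gave 1 of 9, Sgk1, with a median of 0.50. Over these lists Dex 2 was therefore not uniformly low.

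Bcl3 and Sgk1 entered the rule for a reason that can be read from their values. Bcl3, a nuclear regulator of NF-kappaB, had 2.61 on Dex 2 and 10.5 on Dex 1, against 143 and 114 in cells given Dex with IL-9 and 159 and 158 in cells given IL-9. Its 6 remaining arrays lay between 5.28 and 13.3, so the mean of the other 11 was set by the 4 arrays with IL-9. Sgk1 had 39.3 on Dex 2 and 45.02 on Dex 1, against 311 and 241 with Dex and IL-9 and 234 and 226 with IL-9. Neither gene separates Dex 2 from the arrays without IL-9 as the other leading members do.

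Sister probe sets were low as well. Of the 251 genes 73 had more than 1 member, with 5 for Rbm39, a splicing coactivator, and 4 each for genes that included Eif3a, Kif5b, Naa15 and Atrx, a chromatin remodeller. Among sisters with a mean signal of at least 50 that did not meet the rule, 141 of 92 genes, the median difference was -0.70, and 96 lay at least 0.5 below the other arrays (68.1%). Probe sets of other genes, 6941 in all, had a median of 0.09, and 7.79% of them lay at least 0.5 below. The 126 sisters under the signal limit had a median of -0.40. Sisters read the same array as the members, so they describe it again and are no replicate of the condition.

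Of the member genes 142 had 2 or more probe sets above the signal limit, and in 112 of them every such probe set lay at least 0.5 below. These 112 include 50 genes whose probe sets above the limit were all members, for which the rule fixed it. In 9 genes at least 1 sister was at or above the other arrays: Srsf1, Nup155, Lamp2, Luc7l2, Pafah1b1, Rps9, Serbp1, Purb and Capn7. The widest gap was in Srsf1, a splicing factor that regulates its own mRNA. Its member probe set had 54.1 on Dex 2 and a mean of 162 on the others, whereas its sister had 751 on Dex 2 and 474, 589 and 725 on the others (lowest, median and highest). The files do not say which transcript of Srsf1 each probe set reads.

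**Figure D4:**
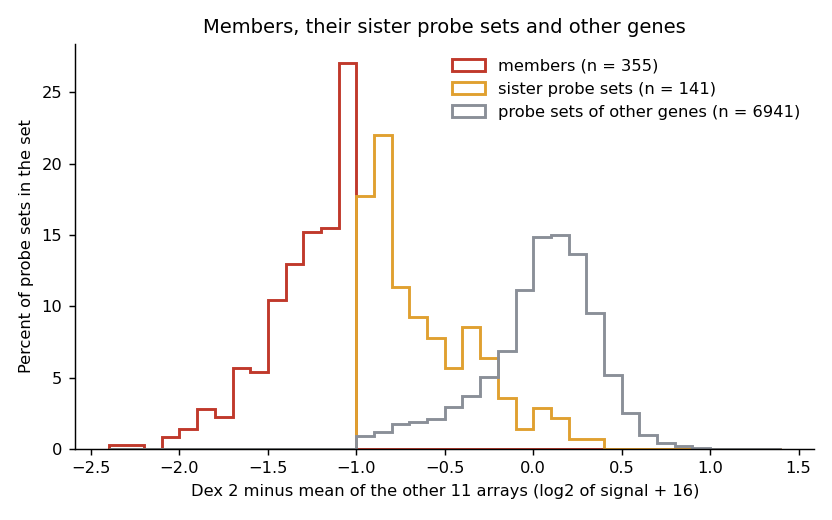
Distribution of the difference of Dex 2 from the mean of the other 11 arrays (log2 of signal + 16, bins of 0.1), as percent of each set, for the 355 members, 141 sister probe sets above the signal limit and 6941 probe sets of other genes. Sisters pile up between -1.0 and -0.5, while the other genes centre just above 0.

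The share of members differed with features of the probe sets and genes. Of probe sets with no letter before the ending _at 6.06% were members, of those with _a 2.71%, with _s 4.50% and with _x 1.77%. These letters mark sets that read several transcripts of a gene, several genes, or probes that may cross-hybridise. By mean signal, of which the rule used only the minimum and the log scale, the share was 4.64% between 50 and 100 and 5.53% between 100 and 200, and 0.833% at 1600 or more. Of 7390 probe sets of protein-coding genes 349 were members (4.72%), near the share of 4.77% over all 7437. Of 26 probe sets of long noncoding RNAs 3 were members (11.5%). The median span of the gene on the genome (GRCm38.p6 gene table) was 39517 bp for members and 21919 bp for the other probe sets, and the share of members was 8.15% in the fifth of longest span and 0.874% in that of shortest span. Transcript length and base composition were not analysed here.

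The members were unevenly spread over the chromosomes. They included 27 of 148 X-linked genes (18.2%) and 224 of 4769 other genes (4.70%). Among them were Hmgn5, Pola1, Thoc2, Sh3bgrl, Stag2, Ddx3x, Atrx, Usp9x and Fmr1. Mtm1, a lipid phosphatase, was the brightest member, with 974 on Dex 2 and a mean of 2008 on the others for its brighter probe set. Over all 243 X-linked probe sets the median difference was -0.07, against 0.06 over all 7437 probe sets. Outside the members it was 0.04, against 0.08 for other chromosomes, but leaving out the members removes the low tail by rule. No test was made of the X-linked share, which comes from the same array as the rule.

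The promoters of 3 leading genes are shown because these genes are among the 5 most depleted and their promoters differ in the CCAAT box, a motif bound by NF-Y. Sequences are from RefSeq (GRCm38.p6), 250 bases before and 50 after the gene start, 5′ to 3′ on the gene's strand, with CCAAT or its reverse complement ATTGG in capitals. Each line gives the gene, its region and its strand.
Cip2a, chr16:48993938-48994237, plus strand: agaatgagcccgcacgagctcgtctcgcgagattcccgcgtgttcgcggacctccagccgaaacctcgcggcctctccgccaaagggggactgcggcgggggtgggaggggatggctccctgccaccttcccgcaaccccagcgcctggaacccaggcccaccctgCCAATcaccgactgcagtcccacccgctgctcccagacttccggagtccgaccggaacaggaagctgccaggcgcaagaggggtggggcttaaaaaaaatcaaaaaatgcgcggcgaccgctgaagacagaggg
Hmgn5, chrX:109013331-109013630, minus strand: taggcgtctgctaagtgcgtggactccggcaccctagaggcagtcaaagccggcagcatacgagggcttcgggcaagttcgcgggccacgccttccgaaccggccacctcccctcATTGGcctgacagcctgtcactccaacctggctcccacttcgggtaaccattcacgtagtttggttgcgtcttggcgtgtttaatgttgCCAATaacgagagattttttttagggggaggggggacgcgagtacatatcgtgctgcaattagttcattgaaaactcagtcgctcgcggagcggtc
Eif3a, chr19:60790644-60790943, minus strand: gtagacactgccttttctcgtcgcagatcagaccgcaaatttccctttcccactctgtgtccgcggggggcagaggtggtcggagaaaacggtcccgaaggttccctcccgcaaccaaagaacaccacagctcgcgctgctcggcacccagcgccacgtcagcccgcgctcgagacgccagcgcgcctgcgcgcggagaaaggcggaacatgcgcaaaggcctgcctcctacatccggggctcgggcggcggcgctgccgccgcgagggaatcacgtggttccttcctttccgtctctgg
The motif occurred 1 time for Cip2a, 2 times for Hmgn5 and 0 times for Eif3a. Promoters were matched by gene for 215 of the 251 member genes, 255 promoters in all. They held CCAAT on either strand in 41.6% of cases, against 38.3% for the other genes above the signal limit and 37.4% of all promoters. TGTTCT, the core of the glucocorticoid receptor's motif, was found on either strand in 12.9% of the members' promoters, against 12.2% and 19.0%, and TATAAA in 6.67%, against 6.39% and 13.6%. Median GC content was 63.0% and 61.3% and the median number of CpG dinucleotides was 25 and 22 for members and other genes above the limit. These matches describe letters in the window, not binding.

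The array's control probe sets give values to set beside the members. The 3′ over 5′ ratio for Gapdh was 0.781 on Dex 2, above the range of 0.682 to 0.771 on the other 11. For beta-actin it was 1.13 on Dex 2, inside the range of 1.10 to 1.22 on the others. Transferrin receptor is itself a member gene (Tfrc), with 3 member probe sets at -1.02 to -1.497. Its control probe sets at the 3′ end, middle and 5′ end had 129.8, 46.0 and 62.4 on Dex 2, against 232 to 472, 84.6 to 217 and 82.7 to 239 on the others, and the 3′ over 5′ ratio was 2.08, inside the range of 1.51 to 2.90. The 3 positions were thus low together.

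Hybridisation spikes averaged 1014 on Dex 2 and 744 to 2007 on the others. The trimmed mean signal was 99.3 on Dex 2 and 99.1 to 99.4 on the others, so every array had been scaled to one level and a depletion is relative to the rest of that array. The members' summed signal was 31454 on Dex 2 and 70902 to 96910 on the others. The part of these measures, of array handling and of the culture in the depletion was not tested, and with 1 array a change in that culture and a change in that array cannot be told apart.

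Array CCL1 2 and array Dex+CCL1 2 shared a weaker form of the pattern. The members were set against the mean of the remaining 10 arrays without Dex 2. Their median was -0.31 on CCL1 2, where 317 lay below (89.3%), and -0.27 on Dex+CCL1 2, where 313 lay below (88.2%). Over all 7437 probe sets the medians were 0.01 and -0.03, and 48.9% and 55.1% lay below. CCL1 2 was the lowest of the 11 for 151 members and Dex+CCL1 2 for 88, counts that were not made over all 7437. The members' medians on the other 9 arrays were between -0.05 and 0.18, highest on Dex 1. CCL1 2 is of another array type and Dex+CCL1 2 is of the common type. Both received CCL1 and are numbered 2. The parts of array type, CCL1 and number in the pattern were not tested. The hybridisation spikes of Dex+CCL1 2 were the highest of all arrays, at 2007, and their part in its lower member signals was not tested.

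The difference between the 2 arrays of a group shows this without Dex 2. Array 2 of Dex+CCL1 was lower than array 1 for 312 members (87.9%), with a median of -0.37, while 54.3% of all 7437 probe sets were lower. Array 2 of CCL1 was lower for 279 members, with a median of -0.27 (52.1% of all lower). The median was -0.09 for IL-9, with 235 lower (48.1% of all), and -0.06 for Dex+IL-9, with 218 lower (50.1% of all). In the unstimulated group it was 0.07, with 140 lower (44.2% of all). In Dex, where the rule fixes it, the median was -1.42. Gene lists also differed in the groups with CCL1: the median difference of array 2 from array 1 was -0.18 in Dex+CCL1 and -0.48 in CCL1 for topoisomerases and condensin, and 0.48 and 0.23 for ribosomal proteins.

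Across the 7437 probe sets the difference of Dex 2 from Dex 1 correlated with the difference of array 2 from array 1 at r = 0.419 in Dex+CCL1, 0.299 in CCL1, 0.220 in Dex+IL-9, 0.106 in IL-9 and 0.103 in the unstimulated group. These are correlations across probe sets, which share arrays and probe sequences and are not independent replicates. Within the 355 members r was 0.317 in CCL1, 0.310 in Dex+CCL1, 0.290 in IL-9, 0.150 in the unstimulated group and 0.108 in Dex+IL-9. The groups with CCL1 gave the highest values over all probe sets, but within the members IL-9 was close to them.

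**Figure D5:**
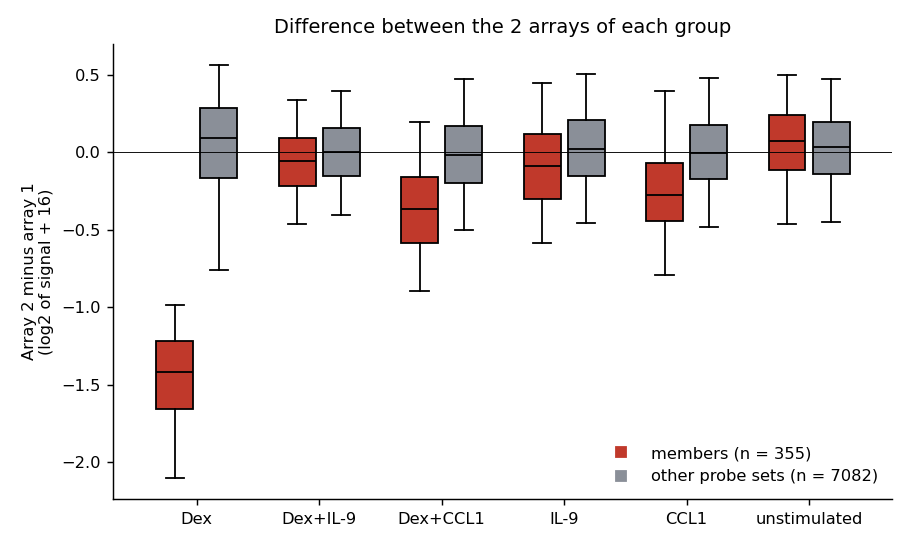
Difference of array 2 from array 1 (log2 of signal + 16) in each of the 6 groups for the 355 members (red) and the 7082 other probe sets (grey), with boxes from the lower to the upper quartile, a line at the median and whiskers from the 5th to the 95th percentile. Beside Dex, where the rule fixes the difference, the members lie lowest in Dex+CCL1 and CCL1.

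Whether Dex acted on these transcripts elsewhere was asked without Dex 2. limma with an intensity trend was fitted to 10 arrays, without Dex 2 and CCL1 2, over 13575 probe sets, with Benjamini-Hochberg adjustment and a threshold of 0.05, and all 355 members were tested. For Dex averaged over the IL-9 and CCL1 backgrounds limma called 0 of 13575 probe sets (0% raised, 0% lowered; 279 at unadjusted p under 0.05) and 0 members (5 raised and 0 lowered at unadjusted p under 0.05). On the CCL1 background the only array without Dex in this fit was CCL1 1, which held glucocorticoid targets at the Dex level. Its Fkbp5 signal was 637, against 599 and 526 on Dex+CCL1 1 and 2. On the IL-9 background IL-9 1 was high as well, and only IL-9 2 was low. The lack of calls therefore cannot decide whether Dex acted on the members. The members' median change was 0.04, against 0.007 over all probe sets tested. Of the 355 members 228 were higher with Dex, against 52.3% of all probe sets tested. The largest was Tmed5, a cargo receptor of the secretory pathway, at 1.06 (SE 0.28, limma adjusted p = 1.00).

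Dex 1 against the unstimulated arrays likewise gave 0 calls in limma (0% in each direction; 307 at unadjusted p under 0.05) and 0 among the members (3 raised and 2 lowered at unadjusted p under 0.05). The members' median change was 0.11, against 0.005 over all probe sets tested, with changes from -0.67 to 0.65. Of the 355 members 251 were higher on Dex 1, against 50.9% of all probe sets tested. The member with the largest rise was Tfrc, at 0.65 (SE 0.26, limma adjusted p = 0.999). With 1 array on the Dex side its spread was taken from the other groups. Both Dex comparisons include arrays labelled without Dex that held glucocorticoid targets at the Dex level.

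Dex was therefore also compared within arrays numbered 2, in an additive model over the same 10 arrays. limma called 61 probe sets raised (0.449%) and 11 lowered (0.081%), with 1341 of 13575 (9.88%) at unadjusted p under 0.05. It called 0 members, of which 12 were raised and 30 lowered at unadjusted p under 0.05. The members' median was -0.04, but 0.08 without Dex+CCL1 2 and -0.22 without Dex+IL-9 2. Its sign thus depended on which Dex array numbered 2 was in the fit. The nearest to the threshold was Fam76b, at -0.71 (SE 0.15, limma adjusted p = 0.074). Next by p-value came Nabp1 at -0.66 and, in a further probe set, -0.58, then Ndufaf4 at -0.65, Gadd45g at -1.04 and Nr1d2 at -0.52. Behind them Srsf10 and Srsf1 were at -0.46 and -0.43 and Thoc2 was at 0.57. None of these passed.

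IL-9 against the unstimulated arrays raised 3 probe sets (0.0221%) and lowered 1 (0.00737%), and the members among them were Bcl3 and Sgk1. Bcl3 was 3.01 higher (SE 0.19, limma adjusted p = 2.93e-05) and Sgk1 was 2.14 higher (SE 0.18, limma adjusted p = 0.000253), in 2 of 2 IL-9 arrays each. As described above, the rise with IL-9 is itself what brought both into the rule, so the calls are no separate evidence. The remaining members had no call, and the median over all of them was -0.04.

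Array number 1 against array number 2 among arrays labelled without Dex raised 141 probe sets (1.04%) and lowered 75 (0.552%). Of the members 2 were higher and 2 lower in the arrays numbered 1, out of 355. One probe set of Smc4 had 801, 665 and 709.5 on IL-9 1, CCL1 1 and unstimulated 1, against 409 and 574 on IL-9 2 and unstimulated 2, and rose by 0.63 (SE 0.14, limma adjusted p = 0.036). Mphosph8, a reader of silencing marks on histone H3, had 101, 133 and 133 on the arrays numbered 1, against 72.8 and 68.0, and rose by 0.67 (SE 0.14, limma adjusted p = 0.028). Neither of these probe sets overlapped between the numbers. The other member probe sets of Smc4 did overlap and had no call: they changed by 0.36 (SE 0.18, limma adjusted p = 0.425) and 0.04 (SE 0.21, limma adjusted p = 0.959).

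Nabp1, a single-stranded DNA binding protein, had 91.6, 97.4 and 76.1 on the arrays numbered 1, against 181 and 112 on those numbered 2, and fell by 0.69 (SE 0.13, limma adjusted p = 0.019). Nr1d2, a circadian nuclear receptor, had 83.7, 98.7 and 117 on the arrays numbered 1, against 149.9 and 171, and fell by 0.60 (SE 0.12, limma adjusted p = 0.029). The array CCL1 2, which was outside the fit, had 152 for Nabp1 and 95.02 for Nr1d2, so for Nr1d2 it lay among the arrays numbered 1. These calls depended on the setting: 0 of the 355 members were called without the intensity trend, and 11 were called once CCL1 2 was added. Leaving out 1 array at a time gave 1 to 6, with 1 without IL-9 1, IL-9 2, Dex+CCL1 1, Dex 1 or Dex+IL-9 1 and 2 without CCL1 1.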

How the data were processed

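BW5147 cells were profiled on 12 Affymetrix arrays. The values are linear signal intensities deposited by the authors, made with MAS5 per the submitters' processing notes; each array's trimmed mean signal was near 100, and the version of MAS5 is not given in the sources used here. The 2 deposited tables were joined on the probe set, 64 control probe sets were set aside, and signals were used as log2(signal + 16), which understates folds of low signals. Symbols came from the platform annotation (20380 probe sets with 1 symbol, 691 with several, 1555 with none); 20351 of the first matched the GRCm38.p6 gene table.

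Tests used limma 3.58.1 in R 4.3.3 (empirical Bayes with an intensity trend, Benjamini-Hochberg over 13575 probe sets above the 40th percentile of mean log2 signal) on 10 arrays. They left out Dex 2, which chose the members, and CCL1 2, which is of another type. The fit was tested on simulated data. Tables were handled in Python 3.11.15 with pandas 2.3.3 and numpy 2.4.6. With 2 arrays a group, their number limits the precision.

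The members and the gene lists were chosen with earlier results of these data known. Genes named were the 20 most depleted (1 of which is not reported here), 5 on either side of the limit, up to 5 per list, members called in a test, genes with several members and up to 10 with a discordant sister; others (the T cell markers, Fkbp5, Cdkn1a, the probe sets above the others, the nearest to a call, the X-linked genes and further members of a list) were picked after their values were seen.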

Additional observations from a re-analysis of the deposited data

Results flagged for a closer look

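Among the hybridisation spikes and the 18S rRNA controls, which enter no comparison, 3 values were over 1.5 times that of the higher unstimulated array. The hybridisation spikes, added to every sample, averaged 2007 on Dex+CCL1 2, against 1191 on the higher unstimulated array and 1014 on Dex 2. The 18S rRNA control read 302 at its 3′ end on Dex 1, against 195 on the higher unstimulated array, and 153 at its middle, against 95.4. Its 5′ end read 1120 on Dex 1 and 816 on unstimulated 2, and 44.8 to 296 on the remaining arrays. That reading missed the limit because unstimulated 2 was itself high. On Dex 2 the 18S controls read 86.2, 53.7 and 119 at the 3′ end, middle and 5′ end, inside the range of the other 11 arrays. No explanation was tested for these values.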

How the results depend on the processing

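The number of members was 355, and over 9 other settings it ran from 67 to 501. It was 104 with a pseudocount of 64 and 67 with a limit of 1.5, where a stricter limit must give fewer. It stayed within 1.5 times of 355 in the other 7, among them quantile normalization (315, of which 313 were members), median centring (311), and 2 references chosen after seeing the data: without CCL1 2 and Dex+CCL1 2 (399) and Dex 1 alone (501). Leaving out 1 of the other 11 arrays at a time gave 341 to 374. Calls among members were 0 in all 8 other settings and all 9 fits with 1 array left out for both Dex averaged over IL-9 and CCL1 and Dex 1, and for IL-9 they were 2, with 2 to 3 when 1 array was left out. For Dex in arrays numbered 2 members called were 0, but 1 with CCL1 2 added, and 0 to 1 when 1 array was left out. For number 1 against number 2 without Dex the 4 calls became 1 with no filter, 2 with median centring, 0 without the intensity trend and 11 with CCL1 2 added, and 1 to 6 when 1 array was left out. The cause was not tested.

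Over all probe sets the calls for Dex in arrays numbered 2 were 72, but 32 with no filter, 24 without the trend and 114 with CCL1 2 added, and 30 without IL-9 2 and 37 without Dex+IL-9 2. For number 1 against number 2 they were 216, but 125, 115 and 383 under the same 3 settings, and 92 without IL-9 2, 96 without IL-9 1 and 117 without unstimulated 2. With the replicate number as a block the members called were 0 for Dex averaged over IL-9 and CCL1, 0 for Dex 1 and 2 for IL-9, where all calls were 8 in place of 4; the number is already a term of the other models. Over the 6 pairs of groups with both arrays in the fit, deviations of same-numbered arrays correlated at r between -0.01 and 0.24, and 3 of the 6 were under 0.1, so pairing by number was not established. With 1 array as the source of the members, no value here has a replicate.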
